A study of Rattus norvegicus with 2 samples.

Results

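The genes described here encode the membrane fusion machinery of secretion: syntaxins, VAMPs and SNAP proteins (the SNAREs), the Munc18, Munc13 and synaptotagmin regulators, the SCAMPs and the exocyst. They were taken by a rule on the symbol (Stx, Stxbp, Vamp, Snap, Syt, Unc13, Scamp, Exoc and Vti1 followed by their number or letter). The rule took 53 of 15409 symbols, with 78 transcripts. This rule and the gene lists used below were set with earlier results of these data known. RNA was sequenced from the RBL-2H3 cell line, which derives from a rat basophilic leukaemia and serves as a mast cell model. 1 library came from cells with normal saline, and the other, called the treated library below, from cells with PM2.5 (fine particles from air), IgE and the antigen DNP-HSA. Whether the saline cells were given IgE and antigen too is not stated, nor is a particle dose unit or exposure time. The 2 libraries therefore differ in particles and, as far as the labels tell, in receptor crosslinking as well, and these cannot be told apart. Since each group is a single library, no difference below could be set against replicates, and no test of the conditions was made.

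Mast cells store histamine and proteases in granules that fuse with the plasma membrane when antigen crosslinks IgE on its receptor. Fusion needs an R-SNARE on the granule (a VAMP) to zip together with Q-SNAREs on the target membrane (a syntaxin and SNAP-23). Munc18 proteins chaperone and clasp the syntaxin, Munc13 proteins prime the granule, synaptotagmins sense calcium, and the exocyst tethers carriers to the membrane before fusion. Most other SNAREs act inside the cell, between the endoplasmic reticulum, Golgi, endosomes and lysosomes.

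The saline library held 7279671 reads and the treated library 3964955, so the saline library was 1.84 times as deep. Of 10 mast cell markers 9 were measured, with reads in both libraries for each; their log2 folds, as defined below, ran from -1.07 for the histamine-forming enzyme gene Hdc to 1.74 for the carboxypeptidase gene Cpa3, with a median of 0.44 and the receptor gene Kit at -0.21. Of 10 neuronal, 7 fibroblast, 6 epithelial and 6 macrophage markers, 3, 5, 1 and 3 were measured. Of the macrophage markers, 2 were at least 2-fold lower, Csf1r at a normalised count of 472 treated against 1215 saline (-1.36, interval -1.55 to -1.18) and Cd68 with 0 against 19 reads, while Adgre1 was at -0.13 with an interval that holds 0. The neuronal markers had normalised counts of 44.6 against 96.3 for Tubb3, 117 against 197 for Syn1 and 19.8 against 39.03 for Syp. The part of these marker differences in the values below was not tested. Values below are normalised counts (reads divided by the library's size factor), and a log2 fold is treated over saline after adding 1 to each; where a value stands against another, the treated one comes first. Brackets hold the exact 95% counting interval of the ratio without the added 1; it covers counting error only, since reads are not independent molecules. A gene was counted as higher or lower when its log2 fold reached 1 in size, that is 2-fold, with a normalised count of 1 or more in either library. Counts rise with transcript length, so levels are not compared between genes.

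Most of the fusion machinery was within 2-fold. Of the 53 genes, 4 were higher by this rule in treated cells (7.55%), 6 were lower (11.3%) and 43 lay between. Across all 15097 symbols with enough signal, 12.1% were higher and 19.1% lower, so the machinery's share past 2-fold was not above theirs in either direction. All symbols had a median of 166 reads over both libraries, against 313 for the 53 genes. Among the 6970 symbols with 157 to 2472 reads, 6.03% were higher and 7.09% lower, both below the machinery's shares. Neither set matches the depth of the 53 genes, which had 2 to 9475 reads. The higher genes were Vamp7, Syt7, Exoc5 and Exoc6. The lower ones included Stx2, Vamp1, Vamp5, Exoc3l1 and Exoc3l2, and 4 of the 6, among them Vamp5, Exoc3l1 and Exoc3l2, had 0 treated reads. The rule works on counts with 1 added. With a floor of 3 reads in place of the 0, Exoc3l1 alone of these 4 was past 2-fold. Counting error alone did not span 0 for 30 of the 53 genes (56.6%), against 49.6% of all symbols. The interval lay wholly past 2-fold for 1 of them, the exocyst relative Exoc3l1, against 6.17% of all symbols. In the authors' deposited table the lowest p-value of any transcript of these genes was 0.138, for Unc13d, with an adjusted p-value of 0.92. The authors selected 57 transcripts, and 0 of them belonged to these genes. Since these genes hold 78 of the 20367 transcripts listed, few or none would be among 57 at an even share. Only 65 of all transcripts had a listed p-value under 0.05, so this 0 says little about these genes.

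**Figure D1:**
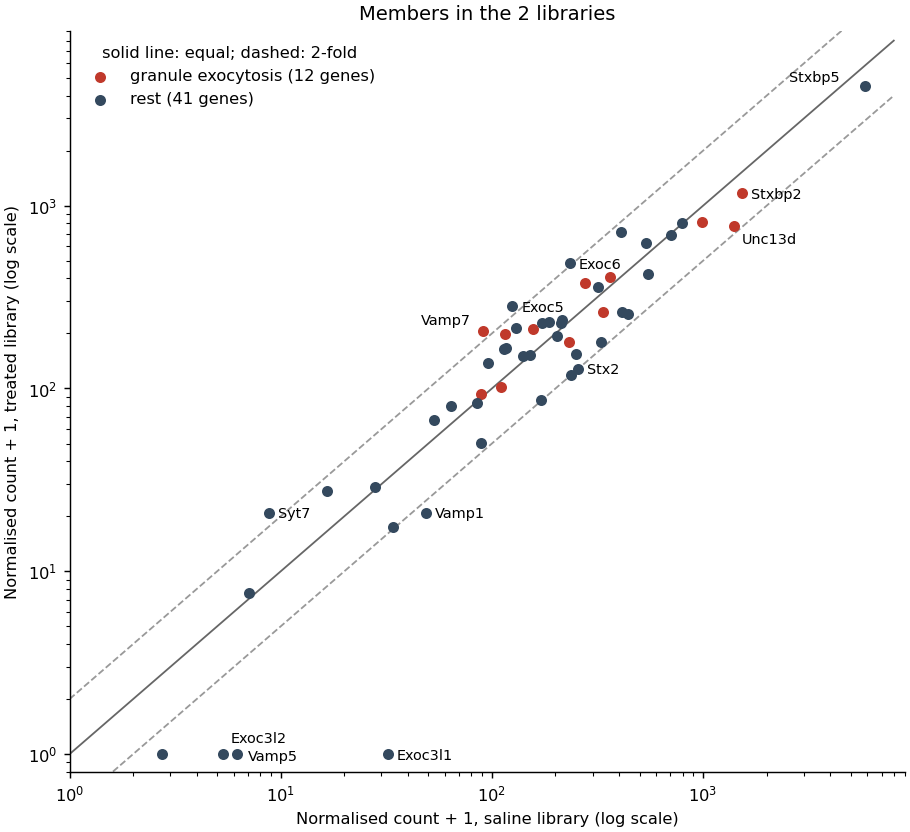
Normalised count plus 1 of each of the 53 genes in the saline library (x axis) and the treated library (y axis), both on log scales; red points are the 12 granule exocytosis genes and dark points the other 41, with lines at equality and at 2-fold. Vamp7 is the red point above the upper 2-fold line, and 4 dark points lie on the floor of the plot with 0 treated reads.

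The comparison of the granule exocytosis genes with the rest asked whether the part of the machinery used in degranulation differed between the libraries more than the part used elsewhere. Of 13 genes listed for granule exocytosis, 12 were measured; synaptotagmin gene Syt2 was not. Of these 12, 1 was at least 2-fold higher and 0 lower, with 6 above and 6 below 0. Of the remaining 41, 3 were higher and 6 lower, with 22 above and 19 below 0. The median log2 fold was -0.019 for the granule genes, 0.021 for the rest and -0.07 for all symbols. The medians of both groups crossed 0 under a rescaling of the libraries, so neither has a direction: with library totals made equal they were -0.075 and -0.035, and with the median of ratios 0.0028 and 0.043. Folds of the granule genes ran from -0.87 to 1.20, with a median size of 0.38 regardless of sign, against 0.53 in the rest and 0.60 over all symbols. The granule genes were also well covered, with 157 to 2472 reads over both libraries; the 6970 symbols with reads in that range had a median size of 0.44, with 6.03% of them higher and 7.09% lower. The rest included 4 genes with 0 reads in the treated library, and all 4 had 36 or fewer reads in the saline library.

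**Figure D2:**
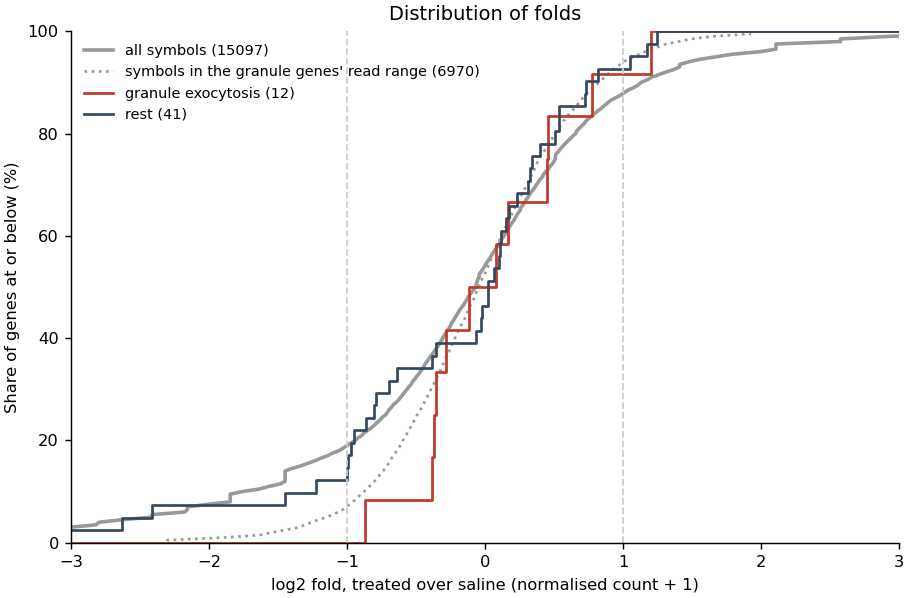
Cumulative share of genes (y axis, percent) at or below each log2 fold, treated over saline (x axis), for the 12 granule exocytosis genes (red), the other 41 genes (dark), all 15097 symbols (grey) and the 6970 symbols with a number of reads in the granule genes' range (dotted). The curves cross near 0; the red curve starts at -0.87 and ends at 1.20, both ends inside the range of the grey one.

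Among the R-SNAREs of granules, the genes went both ways. Vamp7, which encodes the tetanus-insensitive VAMP of lysosomes and secretory lysosomes, had a normalised count of 89.3 with saline and 206 with treatment. This was the only granule gene past 2-fold, at 1.20 (0.82 to 1.60, 125 treated against 103 saline reads), and its interval reached below 2-fold. Vamp8, the R-SNARE most closely tied to mast cell degranulation, was at 178 in the treated library against 232 in the saline one, a log2 fold of -0.37 (-0.71 to -0.049). Vamp2, best known from synaptic vesicles, was likewise lower at 261 against 334 (-0.35). Vamp3, the cellubrevin of recycling endosomes, was higher at 377 against 274 (0.46, interval 0.21 to 0.71). Of these 4 paralogues, 2 thus had intervals above 0 and 2 below 0, and the counting intervals of Vamp7 and Vamp8 did not overlap. Intervals left out 0 for 67.8% of the 6970 symbols in the granule genes' read range.

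Outside the granule genes, Vamp1, a close relative of Vamp2, was lower at 19.8 against 47.7 (-1.23, interval -2.30 to -0.35, 12 against 55 reads). Vamp4, which works between the trans-Golgi network and endosomes, was at 164 against 113, a log2 fold of 0.53. Vamp5, with 0 against 6 reads, passed the size rule with 1 added. With 3 treated reads in place of the 0 it was 1.05-fold lower, short of 2-fold, and its interval reached up to 0.69.

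On the target membrane, Snap23, the SNAP that pairs with syntaxins in mast cells in place of neuronal SNAP-25, was at 197 against 114, a log2 fold of 0.77 (0.41 to 1.15). The syntaxins it works with lay near 0. Stx3 was at 405 against 362 (0.16), Stx4 at 101 against 109 (-0.12) and Stx11, whose loss causes a haemophagocytic syndrome with failed lymphocyte degranulation in humans, at 92.5 against 87.6 (0.078). The intervals of all 3 syntaxins spanned 0. Snap29, which serves autophagosomes and endosomes, was at 230 against 186 (0.31), while Snap47 was lower at 85.9 against 170.0 (-0.98, interval -1.46 to -0.54) and past 2-fold with library totals made equal. Snap91, taken by its name alone, encodes the clathrin assembly protein AP180 and not a SNARE; it stood at 193 against 203.

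The other syntaxins act mostly on inner membranes, and of the 14 syntaxin genes 0 were at least 2-fold higher and 2 lower. Stx2, a plasma membrane syntaxin also called epimorphin, was at 127 against 256 and just past the limit at -1.003 (-1.39 to -0.64); with a pseudocount of 5, the median of ratios or its highest transcript alone it was within 2-fold. Stx1a had 7 saline and 4 treated reads, too few for a direction. The endosomal syntaxins Stx7 and Stx8, which fuse late endosomes, were at 165 against 116 (0.50) and 137 against 94.5 (0.53). Stx16, a trans-Golgi syntaxin, was at 213 against 128 (0.73), and Stx5, which carries Golgi traffic, lower at 263 against 410 (-0.64). Stx12, with a value of 804 against 793 (0.021), had the most reads of the family. The partner Q-SNAREs Vti1a and Vti1b were at 82.6 against 84.1 (-0.026) and at 228 against 173 (0.40).

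**Figure D3:**
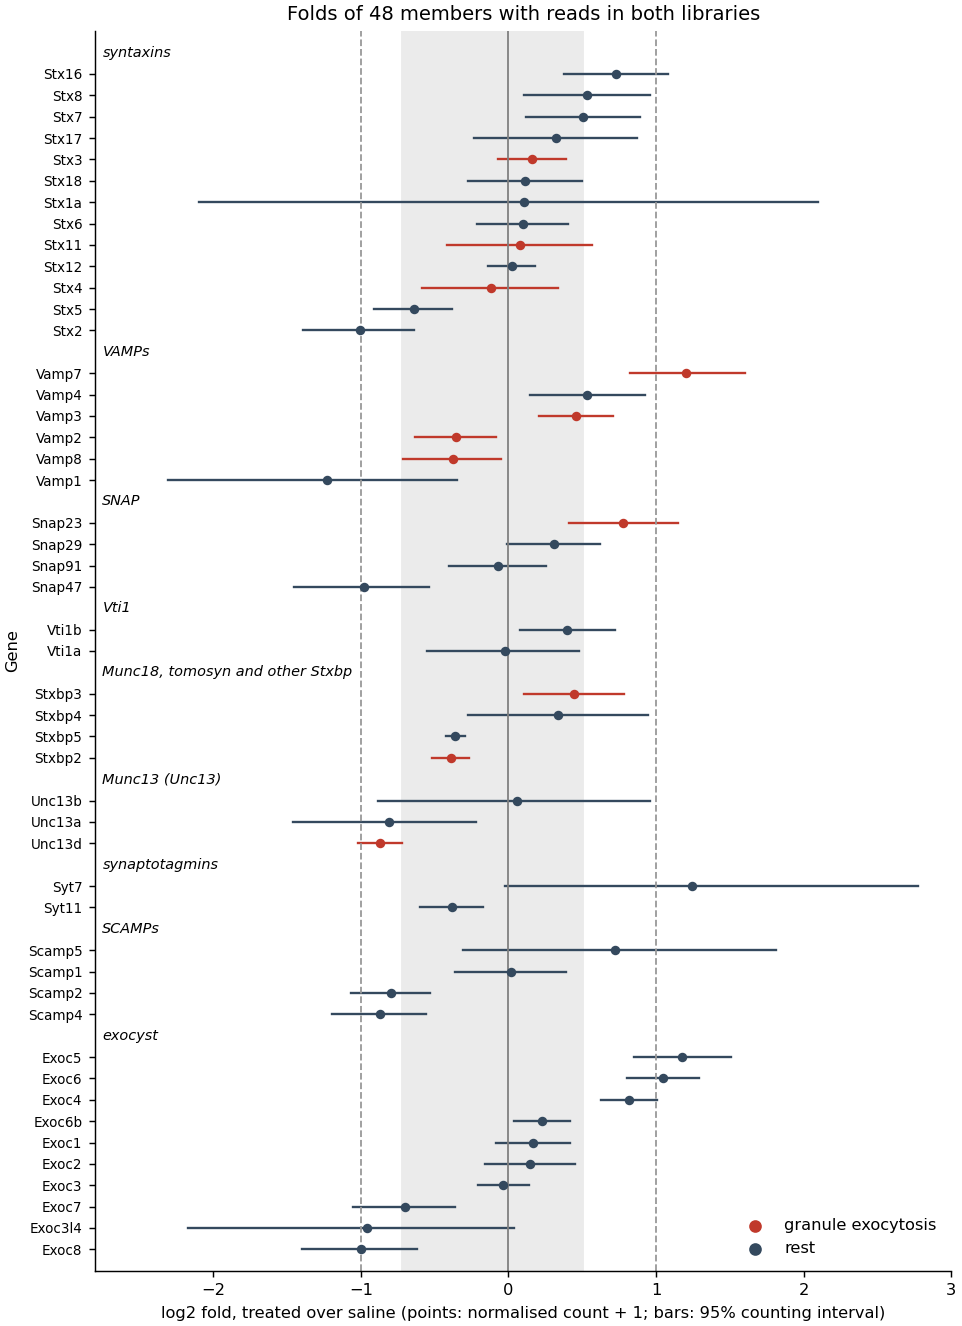
Log2 fold, treated over saline (x axis), of 48 genes with reads in both libraries, grouped by family (y axis); points are folds on normalised counts plus 1, bars exact 95% counting intervals, red the granule exocytosis genes, and the grey band runs from the lower to the upper quartile of all symbols. Each family with 4 or more genes has members on both sides of 0, and Unc13d, Scamp2 and Scamp4 lie left of the band.

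The syntaxin chaperones of the granule were lower or higher by less than 2-fold. Stxbp2 (Munc18-2, the partner of Stx11 and Stx3 in mast cells and cytotoxic lymphocytes) was at 1168 against 1531, at -0.39 (-0.52 to -0.26). Stxbp3 (Munc18-3, a partner of Stx4) was higher at 211 against 155 (0.44, interval 0.11 to 0.78). Stxbp5, the tomosyn gene, whose product binds syntaxin and holds back SNARE assembly, had the most reads of all 53 genes, 2750 treated and 6725 saline; its log2 fold was -0.36 (-0.43 to -0.30).

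The lowest fold of the 12 granule genes was that of Unc13d, which encodes Munc13-4, the priming factor that mast cells and cytotoxic lymphocytes use. It stood at 770 against 1407, with 466 treated and 1622 saline reads. The log2 fold was -0.87 (-1.02 to -0.72), short of 2-fold, and both of its transcripts were lower. The neuronal paralogue Unc13a was lower at 49.5 against 87.6 (-0.81, interval -1.46 to -0.22), and Unc13b was at 28.1 against 26.9 with few reads.

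Of 17 synaptotagmin symbols in RefSeq's rat annotation (GRCr8) 2 were measured, against 51 of the 59 symbols of the other families. Syt11, a family member that does not bind calcium, was at 420 against 548 (-0.39, interval -0.60 to -0.17). Syt7, a calcium sensor of lysosome exocytosis, had 12 against 9 reads; its log2 fold of 1.24 passed the size rule, but the interval of -0.026 to 2.77 spanned 0. Calcium sensors of granule fusion are thus thinly covered in these values. Among the SCAMPs, carrier membrane proteins of post-Golgi vesicles, Scamp2 and Scamp4 were lower at 254 against 441 (-0.79) and 178 against 326 (-0.87), with both intervals below 0. Scamp1 was at 152 against 150.05, and Scamp5 had 34 reads in all.

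The exocyst is a tether built from 8 different subunits, and their transcripts did not share a direction. Exoc5 was at 281 against 124, at 1.17 (0.85 to 1.51, 170 against 143 reads). Exoc6 was at 482 against 233 (1.04, interval 0.80 to 1.29), and was within 2-fold with library totals made equal. Exoc4 followed at 720 against 409 (0.81). Exoc1, Exoc2 and Exoc3 lay near 0, at 0.17, 0.15 and -0.034. Exoc7, a subunit that binds membrane lipids, was at 154 against 250 (-0.70, interval -1.05 to -0.36), and Exoc8 at 117 against 235 (-0.997, interval -1.40 to -0.62), just short of 2-fold and past it with library totals made equal. Of the 8 subunits, 3 thus had intervals above 0 and 2 below 0, and the intervals of Exoc5 and Exoc8 were far apart. Intervals that leave out 0 made up 62.5% of the subunits. Among the 6970 symbols with 157 to 2472 reads the share was 67.8%, so the subunits were not above that background. Among related genes not counted in these 8, Exoc6b was at 626 against 534 (0.23), Exoc3l4 had 10 against 38 reads and Exoc3l2 had 0 against 5. Exoc3l1 had 0 against 36 reads, 6.30-fold lower against the floor of 3 treated reads, and its interval ended at a log2 fold of -2.28.

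The sum over transcripts hid shifts between isoforms in a few genes, as in many symbols of the whole table. The table lists 1 transcript for 35 of the 53 genes and several for 18. The leading transcript differed between the libraries in 2 of these 18, Stxbp4 and Vti1a. This is a smaller share than the 20.9% of 2492 such symbols in the whole table. In Stxbp4, whose product binds syntaxin 4 in insulin-responsive cells, one transcript held 38 of 60 saline reads and 0 of 40 treated reads. The exact interval of that treated share reached up to 8.81%. In Vti1a the transcript that led with saline held 53.6% of saline reads (43.2 to 63.8, exact Clopper-Pearson) and 15 of 50 treated reads (17.9 to 44.6). These 2 intervals overlap. The other Vti1a transcript held 46.4% of saline reads (36.2 to 56.8), so counting error leaves unsettled which one leads with saline.

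Other genes kept their leading transcript while the share of a second one differed. Vamp4 had a second transcript with 59 of 130 saline reads and 0 of 99 treated reads, a treated share whose exact interval reached up to 3.66%. It was 10.3-fold lower against the floor, with an interval that ended at a log2 fold of -3.02. The leading transcript of Vamp4 was at 1.37 (0.92 to 1.86). Of 24 transcripts with at least 50 saline reads in the 18 genes, 2 had 0 treated reads, that of Vamp4 among them. This is close to the 6.98% of such transcripts in the whole table. A smaller shift was seen in Stx4, whose minor transcript went from 19.8% (13.3 to 27.9) to 42.6% (30.04 to 55.9). In Exoc2 the second transcript went from 32.1% to 6.99%, and in Stx16 from 24.3% to 6.20%. Unc13d kept a near-equal makeup, with its leading transcript at 69.7% and 64.8%. How reads shared by isoforms were assigned was not stated in the sources read, and its part in these shifts was not tested.

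**Figure D4:**
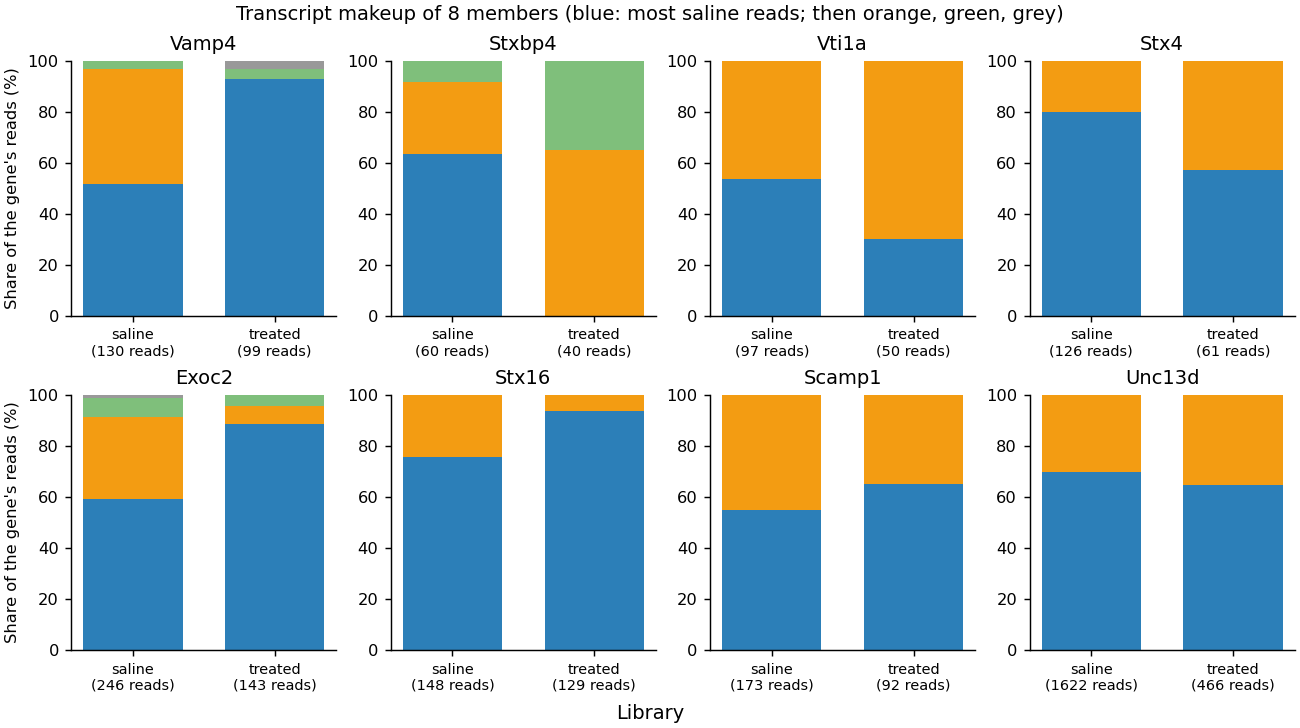
Share of each gene's reads (y axis, percent) held by each of its listed transcripts in the saline and treated libraries (x axis, with read totals) for 8 genes; colours order the transcripts by saline reads. The orange part of Vamp4 and the blue part of Stxbp4 are missing from the treated bars.

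Most genes that act around the fusion machinery were also within 2-fold, as were most symbols. Over all symbols 12.1% were higher and 19.1% lower, and over the 6970 in the granule genes' read range 6.03% and 7.09%. The small counts below are therefore not a trait of these genes. Of 10 further SNAREs of the Golgi and endoplasmic reticulum, 10 were measured and 0 passed 2-fold, with a median log2 fold of 0.19. The SNARE recycling ATPase Nsf and its 3 cofactor genes Napa, Napb and Napg were all within 2-fold, with a median of -0.027. None of 5 further Munc18-like genes passed it, at a median of -0.41. Of 8 measured secretory Rab and effector genes, 1 was higher and 0 lower: Rab27b, which docks mast cell granules, was at 532 against 156. Its paralogue Rab27a was at 1348 against 1113. Rab27b and Munc13-4, a partner of Rab27 proteins on granules, thus had folds of opposite sign, 1.76 (1.501 to 2.04) and -0.87. Among complexins and other cofactors, 5 of 10 were measured, and Cplx2, whose product binds assembled SNAREs, was lower at 29.7 against 90.2 (-1.57, interval -2.41 to -0.87, 18 against 104 reads). Doc2a with 3 against 0 reads and Cadps with 0 against 3 were the other genes past 2-fold in that list, both at the floor.

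Motif letters were read in the RefSeq windows (build GRCr8, 250 bases before to 50 after each gene's start), which matched 45 of the 53 genes by symbol. The series title names JNK, a kinase that activates Jun, which binds AP-1 letters (TGANTCA) and cAMP-response letters (TGACGTCA); the mast cell factor MITF binds the E-box CACGTG. Both strands were searched, and the windows with a match belong to 6 different genes, so no window held more than 1 of the motifs. AP-1 letters stood in 0 of the 45 windows, against 7.33% of all 27457 windows. The cAMP-response letters stood in 1 (2.22%, against 1.91%), that of Vamp1, 1 of the lower genes. The E-box stood in 5 (11.1%, against 6.65%), those of Stxbp2, Stx6, Snap29, Exoc1 and Scamp1. The first sequence is shown for its link to a gene past 2-fold and the second for the granule chaperone, with the motif in capitals. Vamp1 lies at chr4:159698796-159698857 on the plus strand with the motif starting at -71 from the gene's start, and Stxbp2 at chr12:6487232-6487291 on the plus strand with the motif at -67.
Vamp1: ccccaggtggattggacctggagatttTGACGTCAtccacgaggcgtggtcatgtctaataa
Stxbp2: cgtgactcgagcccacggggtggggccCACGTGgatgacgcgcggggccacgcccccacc
These are letter matches, and no binding was measured.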

How the data were processed

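Per the labels' protocols, total RNA of RBL-2H3 cells went into TruSeq libraries that keep the strand. The tools listed in the submitters' processing notes are STAR 2.5, DESeq 1.22.1, FastQC and Cuffnorm, with no role stated. The genome build, annotation and how reads were counted were not stated. Per transcript, the authors deposited log2 values of a normalised count plus 1. Undoing the log and the added 1 left whole multiples of a single step for 100% of values per library (tolerance 1e-06 reads). This gave the reads and size factors of 1.15 (saline) and 0.605 (treated). The authors' deposited p-values are quoted as listed. A further 8 columns repeat these values and are left out.

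Transcripts were added up per symbol; 1276 have none. Folds use a pseudocount of 1. This holds also where a library has 0 reads, and the calls, medians and figures use these folds. For some such genes a second ratio is given against a floor of 3 reads (a normalised count of 4.95 in the treated library). Members and lists were chosen with earlier results of these data known. Named genes were all granule genes, others past 2-fold with 30 or more reads, the 2 highest of each family, genes whose leading transcript differed, and pathway genes past 2-fold; further genes complete their families. Some genes that the rule takes are counted but not reported here by name. The procedure was tested on simulated data. Software was Python 3.11.15 with SciPy 1.17.1, pandas 2.3.3, NumPy 2.4.6 and Matplotlib 3.10.9. Alternatives changed the pseudocount, filter, scaling, transcripts summed and, chosen after seeing the data, the members counted.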

Additional observations from a re-analysis of the deposited data

How the results depend on the processing

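Exoc5 and Vamp7 were at least 2-fold higher under all 9 alternatives to the processing. Each has 1 transcript, so only the pseudocounts and scalings could alter their folds. The count of higher genes was 7 with the transcript of highest level alone, which added Stx16, Stxbp4 and Vamp4. The count of lower genes was 3 with a pseudocount of 5 and 1 with a filter of 50, which removes genes of few reads; it was 9 with library totals made equal, which added Exoc8, Snap47 and Exoc3l4, and 7 with a pseudocount of 0.5, which added Exoc8. Over all symbols, 1023 were higher and 1650 lower with a pseudocount of 5, 707 and 813 with the filter of 50, and 1894 were lower with a filter of 5. The granule median minus the other median was -0.040 as reported and lay between -0.12 and -0.040 under the alternatives. These include one added after seeing the data that left out Snap91 and the Exoc3l genes. The counting error of this difference of medians was not estimated. Of 294 values of named genes, 289 lay within the counting interval of the reported value and 3 changed sign (Exoc3, Stx12 and Vti1a). Many of the 294 could not differ. The filters and leaving out lncRNA transcripts did not alter these genes' folds, and the highest transcript alone cannot alter genes with 1 transcript. Values outside the counting interval came from the highest transcript alone, among them Stx4 (-0.59), Stxbp4 (1.48), Stxbp5 (-0.50) and Vti1a (0.55). No paired analysis was possible because each group has 1 library. Depth limits genes such as Syt7, Stx1a and Vamp5, with at most 21 reads over both libraries.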
